A study of Mus musculus with 2 samples.

Results

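Early neurons were taken as the cells with at least 1 unique molecular identifier (UMI, the tag that marks 1 captured transcript) of at least 3 of 7 neuronal genes. The 7 genes were Tubb3, Elavl3, Elavl4, Stmn2, Dcx, Neurod1 and Nhlh1. The rule was met by 106 of 11958 cells in the WT library and by 105 of 9765 cells in the KO library, which is 211 of 21723 cells in all. Both libraries were droplet single-cell RNA libraries of C57BL/6 mouse embryos at E9.5, from tissue that reached from mid otic placode level to the rear of the 4th somite. The WT embryos were Prdm6+/+; Wnt1-Cre2; ZsGreen1 and the KO embryos were Prdm6f/f; Wnt1-Cre2; ZsGreen1, so the Cre transgene and the fluorescent reporter were present in both groups and the floxed Prdm6 alleles only in KO. Wnt1-Cre2 makes Cre in the Wnt1 lineage, to which the dorsal neural tube and the neural crest belong, and deletion of Prdm6 in or outside this lineage was not measured here. Embryos were pooled, no cell was traced to an embryo here, and each genotype had 1 library. There was therefore no replicate error, no test was made between genotypes, and the intervals given cover counting error only.

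Neurons of the hindbrain, spinal cord and cranial ganglia are born in this tissue at this stage. A progenitor that receives less Notch signal than its neighbours switches on proneural factors of the basic helix-loop-helix (bHLH) family, such as the neurogenins. These switch on Neurod and Nhlh genes, the cell leaves the cell cycle, and cytoskeletal and RNA-binding proteins of neurons follow. Transcription factors with a homeodomain, such as Phox2a, Isl1 and Lhx3, set what kind of neuron is made, and ganglia of placodal and crest origin use Pou4f1 and Eya2.

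Early neurons were 0.886% of WT cells (interval 0.726% to 1.07%) and 1.08% of KO cells (interval 0.880% to 1.3%), a log2 ratio of shares of 0.28 (−0.12 to 0.68). The direction of this ratio was not stable. The early neurons had a median of 1683.5 UMIs per cell in WT and 2193 in KO, a wider gap than the 1596 and 1695 UMIs of all other cells. When cells were thinned at random to 1000 UMIs before the rule was applied, which left out 1361 WT and 125 KO cells with fewer UMIs (6 and 2 of them early neurons), 69 of 10597 WT cells (0.651%) and 57 of 9640 KO cells (0.591%) were members, and the log2 ratio was −0.14. A count of 2 markers instead of 3 gave 253 WT and 275 KO cells and a log2 ratio of 0.41 (0.16 to 0.66). With 3 markers the interval of the ratio included 0, and its sign turned with thinning and the loss of shallow cells, so no order of the 2 shares is read. In the deposited files 26 cell barcodes were found in both libraries, of which 0 belonged to early neurons.

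The label was checked on 28 neuronal genes that the rule did not use, among them those for neurofilaments, microtubule proteins and RNA-binding proteins of neurons. Summed, they had 5681 CPM in WT and 5315 CPM in KO in the early neurons, against 878 and 973 CPM in all other cells, where CPM is UMIs per 1000000 UMIs of the cells named. At least 1 of these genes was detected in 104 of the WT and 104 of the KO members. The level rose with the number of rule markers in a cell up to 6. In WT it was 858 CPM in cells with 0 markers, 2669 CPM with 3 and 10138 CPM with 6, and in KO it was 946, 2400.3 and 10409 CPM. The 1 KO cell with 7 markers had 6542 CPM, below the level at 6, and the 4 WT cells with 7 had 13966 CPM. Just outside the threshold, the 147 WT and 170 KO cells with 2 markers had 1422 and 1407 CPM, and just inside it the 41 WT and 36 KO cells with 3 markers had 2669 and 2400.3 CPM. Members with 5 markers had 7189 and 7621 CPM, so both the cells with 2 markers and the members with 3 lay nearer to the cells with 0 markers than to these. The rule was also set against cells with markers of another type. It was met by 0 of 649 erythroid cells (globin UMIs at 10% or more of the cell), which allows a share of up to 0.567% by the exact interval. The rule was met by 5 of 1900 cardiac and by 1 of 693 endothelial cells, each set being defined by its own markers. Of the 513 cells with a UMI of at least 2 of the crest genes Sox10, Foxd3 and Erbb3 it was met by 5 (0.975%), 1 of 298 in WT and 4 of 215 in KO, a share near that of early neurons among all cells.

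**Figure D1:**
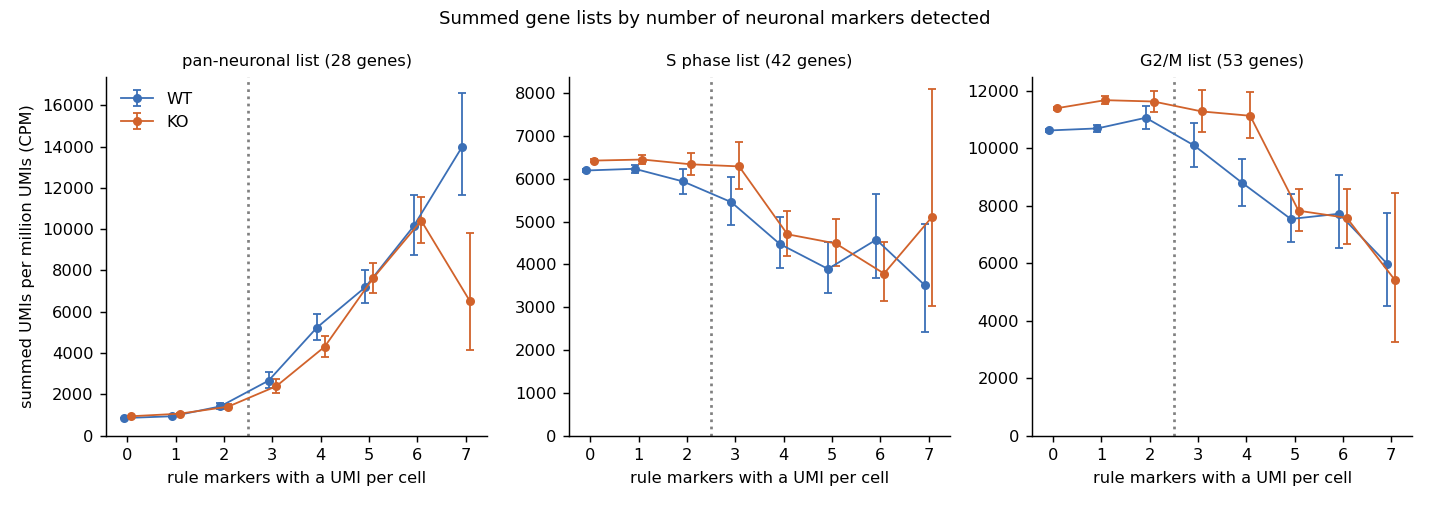
Summed UMIs per 1000000 UMIs (CPM) of a pan-neuronal list, an S phase list and a G2/M list in cells grouped by how many of the 7 rule markers they had, for WT (blue) and KO (orange), with exact Poisson intervals of 95%. The dotted line marks the threshold. The pan-neuronal level climbed from 858 CPM at 0 markers to 10138 CPM at 6 in WT, and both cell cycle lists were lower at 6 markers than at 0. The cells with 7 markers number 4 in WT and 1 in KO.

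Genes of the cell cycle were lower in cells with 5 or 6 markers than in cells with 0. The S phase list of 42 genes had 6195 CPM in WT cells with 0 markers and 4580.1 CPM with 6, and in KO 6426 and 3788 CPM. The G2/M list of 53 genes had 10615 and 7719 CPM in WT and 11388 and 7576 CPM in KO. The cells with 6 markers were few, 11 in WT and 12 in KO, but cells with 5 markers, 22 in WT and 25 in KO, had similar G2/M levels of 7537 and 7825 CPM. The fall was not even along the axis. With 3 and 4 markers the G2/M level was 10093 and 8786 CPM in WT. In KO it was 11275 and 11125 CPM, near the 11388 CPM of cells with 0 markers. The S phase level with 3 markers was 5455 CPM in WT and 6290 CPM in KO. The levels stayed well above 0 at every number of markers, so transcripts of both lists were still present in the cells with most markers.

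The rule genes themselves were unequal in how often they qualified a cell. Elavl4, which encodes the RNA-binding protein HuD, had a UMI in 92 WT and 93 KO cells, and Tubb3, a neuronal beta-tubulin, in 79 WT and 76 KO cells. Nhlh1, a bHLH factor switched on as neurons are born, was found in 82 WT and 76 KO cells, and Elavl3, which encodes HuC, in 77 WT and 72 KO cells. The remaining rule genes were found less often, Neurod1, a bHLH factor downstream of the neurogenins, in 43 WT and 50 KO cells, Stmn2, a regulator of microtubules, in 44 WT and 46 KO cells, and Dcx, a microtubule-binding protein of migrating neurons, in 22 WT and 23 KO cells. Nhlh1 had 1177 CPM in WT (226 UMIs, interval 1028 to 1341) and 876 CPM in KO (214 UMIs, interval 763 to 1002). Tubb3 had 1119 CPM in WT (215 UMIs, interval 975 to 1279.5) and 856 CPM in KO (209 UMIs, interval 744 to 979.9). The intervals of Nhlh1 did not overlap between the libraries, and those of Tubb3 overlapped only near their ends. Neurod1 lay in the other direction, with 646 CPM in WT (124 UMIs, interval 537 to 769.8) and 901 CPM in KO (220 UMIs, interval 786 to 1028). Since these genes chose the cells, their levels are a description of the selection.

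Outside the rule, the 15 genes with the highest ratio of early neurons over other cells in the lower of the 2 libraries, among genes with at least 100 UMIs, included Insm1, Nefm, Nefl, Neurod4, Ina, Rgs4, Celf3, Onecut2, Nhlh2, Tagln3, Isl1, Ebf1, Trp53i11 and Rtn1. Transcription factors of neuronal birth and identity were the most numerous, led by Insm1, a zinc finger repressor that acts as progenitors commit, with 594 CPM in WT and 626 CPM in KO against 12.97 and 12.0 CPM in other cells. Neurod4, a bHLH factor of the same cascade as Neurod1, had 573 CPM in WT and 589.6 CPM in KO against 14.2 and 13.8 CPM. The intermediate filament genes Nefl, Nefm and Ina, whose proteins fill axons, form another kind, and Nefl had 474 CPM in WT and 516 CPM in KO against 11.6 and 12.8 CPM. Rgs4, a regulator of G protein signalling, had 146 CPM in WT and 319 CPM in KO against 3.84 and 3.80 CPM, and was the only 1 of the 15 with a difference of at least 2-fold between the libraries within early neurons, where 1.98% of all genes tested differed by as much.

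**Figure D2:**
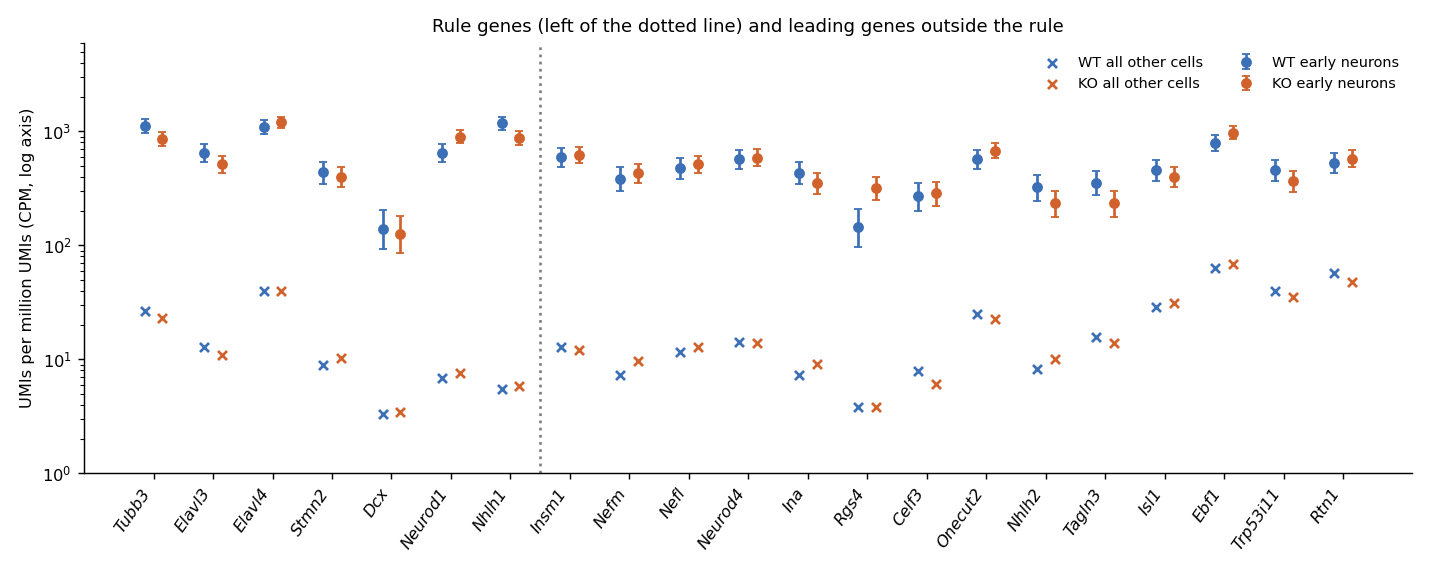
Level of the 7 rule genes (left of the dotted line) and of 14 of the leading genes outside the rule, in UMIs per 1000000 UMIs (CPM) on a log axis, in early neurons (circles, with exact Poisson intervals of 95%) and in all other cells (crosses) of WT (blue) and KO (orange). The rule and the ranking chose these genes for a higher level in early neurons than in other cells. On this log axis Rgs4 shows the widest gap between the libraries, 146 and 319 CPM in WT and KO.

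Several of these genes, Neurod1, Nhlh1, Neurod4 and Nhlh2, encode bHLH factors, and the motif that such factors bind is the E-box. For this reason the promoters of the leading genes were searched for 2 forms of the E-box, CAGATG (on either strand, so also as CATCTG) and the palindrome CAGCTG. A promoter here is the 300 bases from 250 before to 50 after a transcription start, from RefSeq on GRCm38.p6. Of the 15 genes, 10 had at least 1 promoter in the table, with 20 promoters in all. At least 1 match was found in 7 of the 10 genes (70%), against 9029 of 27025 genes (33.4%) in the whole table. Counted by promoter, 12 of 20 held a match (60%), against 10043 of 32851 (30.6%), and 7 promoters of Celf3 weigh on this count. The count by gene takes a match in any promoter, so genes with more promoters have more chances. The 10 genes had 20 promoters, against 32851 promoters for the 27025 genes of the whole table. A match describes letters in a window and is not evidence of binding. The promoters of the first 4 genes by rank that held a match are printed here 5′ to 3′ with the match in capitals, for each gene the most upstream promoter that has one.
Neurod4, chr10:130280089-130280388, minus strand: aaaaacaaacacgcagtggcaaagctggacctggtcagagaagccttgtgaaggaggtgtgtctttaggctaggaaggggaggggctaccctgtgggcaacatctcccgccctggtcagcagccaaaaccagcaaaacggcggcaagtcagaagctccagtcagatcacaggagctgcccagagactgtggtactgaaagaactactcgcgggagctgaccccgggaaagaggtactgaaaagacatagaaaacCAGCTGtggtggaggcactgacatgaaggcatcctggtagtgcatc
Ina, chr19:47014431-47014730, plus strand: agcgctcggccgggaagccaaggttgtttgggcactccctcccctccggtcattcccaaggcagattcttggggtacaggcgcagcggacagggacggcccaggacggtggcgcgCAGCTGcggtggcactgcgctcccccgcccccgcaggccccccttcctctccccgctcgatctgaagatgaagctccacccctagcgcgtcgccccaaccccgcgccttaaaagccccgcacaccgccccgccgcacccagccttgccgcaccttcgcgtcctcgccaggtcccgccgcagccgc
Rgs4, chr1:169747593-169747892, minus strand: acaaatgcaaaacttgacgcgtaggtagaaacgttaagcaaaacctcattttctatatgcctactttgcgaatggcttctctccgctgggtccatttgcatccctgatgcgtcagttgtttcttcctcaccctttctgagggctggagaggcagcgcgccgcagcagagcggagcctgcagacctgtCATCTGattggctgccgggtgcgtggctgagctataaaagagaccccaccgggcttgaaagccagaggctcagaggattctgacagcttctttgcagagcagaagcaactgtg
Celf3, chr3:94478045-94478344, plus strand: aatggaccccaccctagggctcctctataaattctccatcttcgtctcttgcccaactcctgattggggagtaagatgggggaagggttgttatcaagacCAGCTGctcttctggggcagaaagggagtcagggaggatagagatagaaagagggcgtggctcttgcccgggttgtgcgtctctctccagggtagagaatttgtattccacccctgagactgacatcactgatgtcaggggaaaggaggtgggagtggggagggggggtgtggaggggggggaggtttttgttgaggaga
In Ina, Rgs4 and Celf3 the match starts 135, 63 and 150 bases before the transcription start, and in Neurod4 it starts at base 5 of the transcript. The match in Rgs4 is CATCTG, the other strand of CAGATG, and those in the other genes are CAGCTG.

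To place the early neurons beside the cells they come from, they were set against neural progenitors, the 1628 WT and 1444 KO cells outside the rule that had a UMI of at least 2 of Sox1, Sox2, Sox3, Pax6, Hes5 and Rfx4. Of 2110 genes with a mean of at least 100 CPM over the 4 groups of cells, 78 (3.7%) were at least 2-fold higher in early neurons in both libraries and 16 (0.758%) at least 2-fold lower. The selection made this contrast, and a gene low in progenitors could pass the filter only through a high level in early neurons, so the shares describe the selection and no count is given by list. Sox11, a transcription factor that keeps neuronal genes on in young neurons, had the most UMIs of the proneural list, with 4322 CPM in WT and 4025 CPM in KO in early neurons against 1686 and 1599.9 CPM in progenitors. Its paralog Sox4 had 1249.7 CPM in WT and 999 CPM in KO against 645 and 665 CPM. Both genes were therefore well detected in progenitors too. All 6 genes that define the progenitors were at least 2-fold lower in early neurons, as their choice would give. A UMI of Sox2 was found in 27.4% and 23.8% of WT and KO members, against 19.2% and 22.2% of all other cells and 14.1% and 13.2% of erythroid cells, which should lack it, and in KO the intervals of members and erythroid cells overlap. Msi1, an RNA-binding protein of neural precursors, had 526 CPM in WT and 471 CPM in KO against 439 and 360.01 CPM in progenitors. In all, 16 WT (15.1%) and 17 KO early neurons (16.2%) also met the progenitor rule, near the 13.7% and 14.96% of all cells that met it.

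Of the proneural genes themselves, Neurog1 had the most UMIs of the neurogenins, with 161 CPM in WT (31 UMIs, interval 109.7 to 229) and 147 CPM in KO (36 UMIs, interval 103 to 204) in early neurons against 14.6 and 11.4 CPM in progenitors. Neurog2 had 62.5 CPM in WT and 65.5 CPM in KO in early neurons. Atoh1 and Ptf1a, proneural factors of dorsal hindbrain progenitors, had 0 UMIs in both libraries. Ebf1, Ebf2 and Ebf3, helix-loop-helix factors of differentiating neurons, had 797 and 974 CPM, 182 and 111 CPM and 224 and 295 CPM in WT and KO, against 43.6 and 48.3 CPM, 15.3 and 21.1 CPM and 22.6 and 22.8 CPM in progenitors.

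Ligands, receptors and targets of the Notch pathway list were set against progenitors gene by gene. The ligand gene Dll3, which in neuronal precursors acts inside the cell on Notch signalling, had 239.5 CPM in WT (46 UMIs, interval 175 to 319) and 188 CPM in KO (46 UMIs, interval 138 to 251), against 3.66 and 5.36 CPM in progenitors. Dll1, the ligand that new neurons present to their neighbours, had 72.9 CPM in WT and 36.8 CPM in KO against 22.6 and 20.1 CPM. Mfng, a glycosyltransferase that modifies Notch, had 104 CPM in WT and 94.2 CPM in KO against 12.3 and 6.03 CPM. These 3 genes were higher in early neurons than in progenitors in both libraries, though Dll1 rests on 14 UMIs in WT and 9 in KO. Notch2, a receptor gene, had 286 CPM in WT and 221 CPM in KO against 775 and 516 CPM, and Hes5, a target that keeps cells as progenitors and 1 of the genes used to choose them here, had 67.7 CPM in WT and 53.2 CPM in KO against 184 and 170.3 CPM. Hes1 had 41.7 CPM in WT and 53.2 CPM in KO against 115 and 154 CPM. Hes6, a Hes gene that promotes neuronal birth, had 161 CPM in WT and 143 CPM in KO against 25.6 and 22.8 CPM. The receptor gene Notch1 had 130.2 CPM in WT and 184 CPM in KO against 89.8 and 79.8 CPM, and Notch3 had 36.4 CPM in WT and 24.6 CPM in KO against 93.1 and 93.9 CPM. The ligand gene Jag1 had 109 CPM in WT and 53.2 CPM in KO against 74.9 and 73.7 CPM, and Dll4 and Jag2 had at most 4 UMIs in either library. Neither the ligand genes nor the receptor genes all lay on one side of the progenitors. Between the genotypes the sum of the 18 Notch genes had a log2 KO/WT of −0.24 (−0.45 to −0.02) in early neurons and of −0.29 in all other cells, and 0 of the 6 with at least 50 UMIs differed by 2-fold, against 1.98% of all genes tested, a share at which 6 genes show nothing about the list.

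Early neurons were also grouped by transcription factors that set neuronal identity. The groups were formed after the values were seen and overlap, with 22 cells in at least 2 of the 4 groups and 88 of the 211 in none. Phox2a, a homeodomain factor of cranial motor neurons and autonomic and epibranchial ganglia, had a UMI in 24 WT (22.6%, interval 15.1% to 31.8%) and 36 KO cells (34.3%, interval 25.3% to 44.2%), a log2 ratio of shares of 0.60 (−0.19 to 1.41). After thinning to 1000 UMIs it had a UMI in 15 of 100 WT (15%) and 23 of 103 KO cells (22.3%). These are the members by full counts with at least 1000 UMIs, not the cells that met the rule after thinning. Among erythroid cells, which should lack this gene and had median depths of 2028 and 2469 UMIs, 0% and 0.529% had a UMI. The count of 0 in WT allows a share of up to 0.799% by the exact interval, so the shares in early neurons lay above the background. Its level was 146 CPM in WT (28 UMIs, interval 96.9 to 211) and 249.8 CPM in KO (61 UMIs, interval 191 to 321). The level of Phox2a differed between the libraries by more than its counting error, at a log2 KO/WT of 0.78 (0.11 to 1.48), while the interval of the ratio of shares included 0.

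Several identity genes were found in the same cells, which is given as a description over the cells of 2 libraries. Nkx2-2, a homeodomain factor of the ventral progenitor domain from which visceral motor neurons arise, had a UMI in 19 early neurons, of which 12 (63.2%) also had Phox2a, against 48 of the 192 others (25%). Nkx6-1, another homeodomain factor of ventral progenitors, was found in 35 of the 60 Phox2a cells (58.3%) and in 52 of the 151 without Phox2a (34.4%). Isl1, a LIM homeodomain factor of motor and sensory neurons, was found in 31 of the 39 cells with Rgs4 (79.5%), against 62 of the other 172 (36.0%). Nefl was found in 35 of these 39 cells (89.7%) and Pou4f1 in 18 (46.2%), against 42 (24.4%) and 16 (9.30%) of the other 172. Nkx2-2 was found in 0 of the 39. Slc18a3, the vesicular acetylcholine transporter of cholinergic neurons, was found in 21 cells, of which 12 (57.1%) had Isl1, against 81 of the other 190 (42.6%). Cells with more UMIs show more genes together, and the part of depth in these shares was not tested. The Phox2a cells had a median depth of 1688 and 2246.5 UMIs in WT and KO, beside 1683.5 and 2193 for all early neurons. A group median does not show the depth of cells with both genes of a pair. No such median is given for the Nkx2-2, Rgs4 or Slc18a3 cells.

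**Figure D3:**
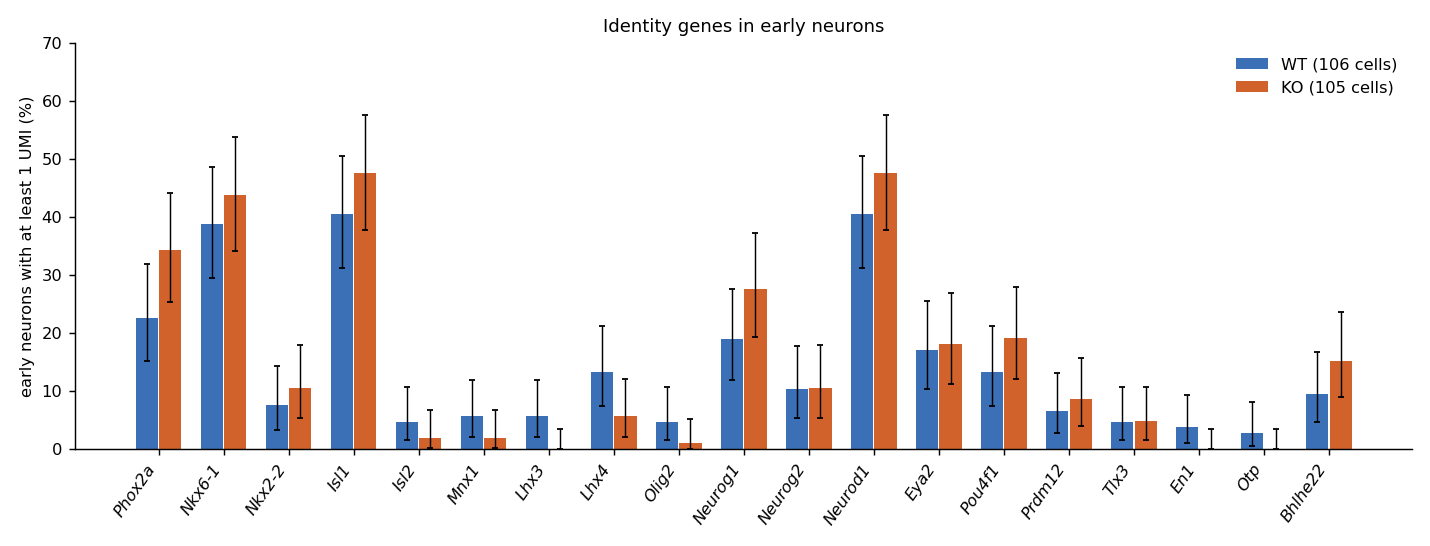
Share of early neurons with at least 1 UMI of 19 genes of neuronal identity, for WT (blue, 106 cells) and KO (orange, 105 cells), with exact binomial intervals of 95%. Isl1, Nkx6-1 and Neurod1 were found in at least 38.7% of the cells of both libraries, and the intervals of all genes drawn overlap between the libraries.

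A smaller group had a UMI of Mnx1, Lhx3 or Lhx4, LIM and related homeodomain factors of somatic motor neurons. It held 16 WT (15.1%, interval 8.88% to 23.4%) and 6 KO cells (5.71%, interval 2.13% to 12.0%), a log2 ratio of shares of −1.40 (−3.04 to 0.03), whose interval only just includes 0. After thinning, 13 of 100 WT (13%) and 5 of 103 KO cells (4.85%) had such a UMI. The cells counted were the same members by full counts as for Phox2a, not the cells that met the rule after thinning. Among erythroid cells 0.652% and 0.529% had such a UMI. Lhx4 had 151 CPM in WT (29 UMIs, interval 101 to 217) and 53.2 CPM in KO (13 UMIs, interval 28.3 to 91.0). Lhx3 had 8 UMIs in WT and 0 in KO, at least 3.39-fold lower in KO when a floor of 3 UMIs is set for the KO early neurons and the WT UMIs are taken without error. Mnx1 had 8 UMIs in WT and 3 in KO, Isl2 had 6 UMIs in WT and 2 in KO, and Olig2, the bHLH factor of the motor neuron progenitor domain, had 8 UMIs in WT and 1 in KO. All 5 genes thus had fewer UMIs in KO than in WT, from 6 cells in KO and 16 in WT for the first 3. They were singled out after their values were seen, and the 10 other genes of the motor list had 371 UMIs in WT and 563 in KO in sum, a log2 KO/WT of 0.25 in the other direction. Lhx4 and Isl1 were found together in 16 of the 20 cells with Lhx4 (80%), and all 8 cells with Mnx1 had Lhx4. Neither Mnx1 nor Lhx3 shared any cell with Phox2a (0 of 8 and 0 of 6 cells), which was found in 60 of all 211 early neurons, but 2 of the 20 cells with Lhx4 had it, both of them in KO. Lhx4 was found in 20 of the 22 cells of the group. Eya2 or Pou4f1, used for sensory neurons below, had a UMI in 6 of the 22 cells, against 60 of all 211 early neurons. Pou4f1 was found in 5 of the 20 cells with Lhx4.

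Genes of placodal and crest-derived sensory neurons were used for another group. Eya2 or Pou4f1 had a UMI in 26 WT (24.5%, interval 16.7% to 33.8%) and 34 KO cells (32.4%, interval 23.6% to 42.2%), a log2 ratio of shares of 0.40 (−0.38 to 1.20). After thinning, 19 of 100 WT (19%) and 17 of 103 KO cells (16.5%) had such a UMI, in the other order. These were again members by full counts, as for Phox2a. Of the 649 erythroid cells 0 had such a UMI, which allows up to 0.462%. Pou4f1, a POU domain factor of sensory neurons, had 135 CPM in WT and 143 CPM in KO, and Eya2, a transcriptional coactivator of placodes, had 109 CPM in WT and 98.3 CPM in KO. Neurod1 was found in 25 of the 37 cells with Eya2 (67.6%) and in 19 of the 34 with Pou4f1 (55.9%), against 68 of 174 (39.1%) and 74 of 177 (41.8%) of the cells without. Neurog1 and Neurod1, which act in turn in cranial ganglia, were found together in 34 of the 49 cells with Neurog1 (69.4%), against 59 of the other 162 (36.4%). Neurod1 is a rule gene, so the selection shaped all these shares and they support no grouping. The sensory group and the Phox2a cells, 60 cells each, shared 16 cells, which is 26.7% of either, near the 28.4% that each makes up of all early neurons. Markers of later sensory subtypes were scarce. Tlx3 had 6 UMIs in WT and 5 in KO, and Runx3 had 0 in both.

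Interneuron factors were spread thinly over many genes. The 12 measured genes of the ventral list had 57 UMIs in WT and 69 in KO, with a UMI in 35 WT and 43 KO early neurons, and the 13 of the dorsal list had 40 and 38 UMIs, with a UMI in 20 cells of each library. Nkx2-2 and Bhlhe22 had the most UMIs of the ventral list and Foxp2 and Pax2 of the dorsal list. En1 and Otp, homeodomain factors of ventral and other interneurons, were found in 4 WT early neurons and 0 KO early neurons, and 3 of the 4 cells had both genes. En1 had 9 UMIs in WT and 0 in KO and Otp 5 UMIs in WT and 0 in KO, at least 3.82-fold and 2.12-fold lower in KO at the same floor, values that leave out the counting error of the WT UMIs, with which the log2 KO/WT has upper limits of −1.33 and −0.22. By cells, 0 of 105 allows a share of up to 2.86% at a floor of 3 cells and 3.45% by the exact interval, near the WT share of 3.77%, and the interval of the log2 ratio of shares reaches 0.61 and so includes 0. Barhl1, Barhl2, Lbx1, Evx1, Sim1 and Tal1, which mark other interneuron classes, had 0 UMIs in the early neurons of both libraries. Bhlhe22, a bHLH factor of several interneuron classes, had 57.3 CPM in WT (11 UMIs, interval 28.6 to 102) and 90.1 CPM in KO (22 UMIs, interval 56.5 to 136). Of the 211 early neurons, 88 (41.7%) had no UMI of Phox2a or of any gene that defines the somatic motor, sensory or En1 and Otp groups.

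**Figure D4:**
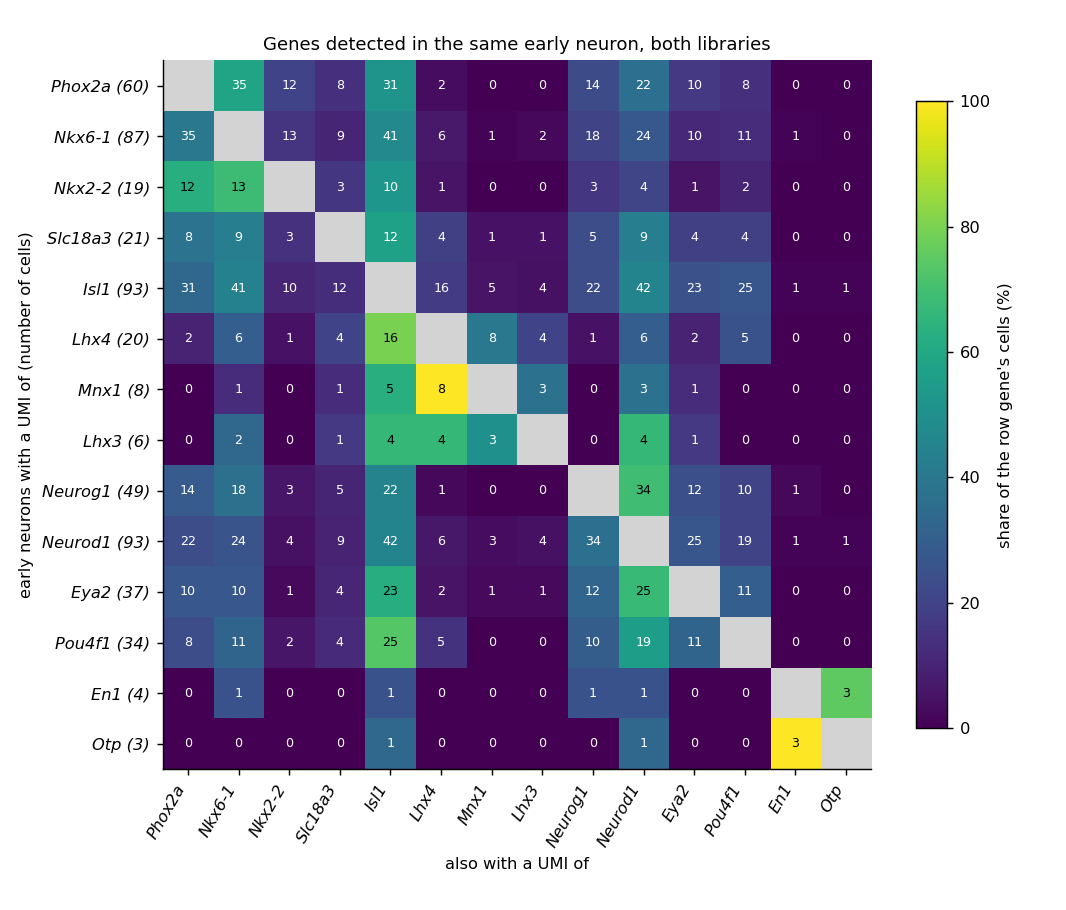
Early neurons of both libraries with a UMI of the gene in the row (number of cells in brackets) that also had a UMI of the gene in the column; the colour gives the share of the row gene's cells in % and the printed figure gives the number of cells. Nkx2-2 shares 12 of its 19 cells with Phox2a and all 8 Mnx1 cells had Lhx4. Mnx1 and Lhx3 share 0 cells with Phox2a, while Lhx4 shares 2 of its 20 cells with it.

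Hox genes, which record position along the body axis, were present from the anterior to the middle groups. Summed over 25 measured Hox genes, early neurons had 1265 and 999 CPM in WT and KO, against 538 and 418 CPM in other cells. Hoxb8 had the most UMIs among them in both libraries, with 208 CPM in WT (40 UMIs, interval 149 to 284) and 197 CPM in KO (48 UMIs, interval 145 to 261), against 45.5 and 21.2 CPM in other cells. Hoxa3 had 167 CPM in WT and 123 CPM in KO, Hoxb4 had 125 CPM in WT and 156 CPM in KO and Hoxb5 had 167 CPM in WT and 159.7 CPM in KO. Hoxb8 was found in 33 early neurons, of which 22 (66.7%) also had Hoxb5, against 20 of the 178 others (11.2%). It was present in 10 of the 60 Phox2a cells (16.7%), 5 of the 22 cells of the somatic motor group (22.7%) and 8 of the 60 of the sensory group (13.3%), against 15.6% of all early neurons. Hoxa2, expressed from the anterior hindbrain backwards, had 88.5 CPM in WT (17 UMIs, interval 51.6 to 142) and 28.7 CPM in KO (7 UMIs, interval 11.5 to 59.1), a log2 KO/WT of −1.63 (−3.14 to −0.28). In all other cells Hoxb8 was lower in KO, at a log2 KO/WT of −1.10, and Hoxb9 had 8.45 CPM in WT and 0.749 CPM in KO. Within early neurons Hoxb8 had −0.08 (−0.72 to 0.56). Whether the tissue pieces of the 2 libraries reached equally far back was not tested, and the part of this in the numbers of cells with Mnx1, Lhx3, Lhx4, En1 or Otp was not tested.

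Genes of axon growth were already on in part. Of 25 guidance and adhesion genes, Ncam1, a cell adhesion molecule of neurons, had the most UMIs, with 547 CPM in WT (105 UMIs, interval 447 to 662) and 323 CPM in KO (79 UMIs, interval 256 to 403), against 103 and 91.2 CPM in other cells. Robo2, a receptor for the repellent Slit proteins, had 281 CPM in WT (54 UMIs, interval 211 to 367) and 159.7 CPM in KO (39 UMIs, interval 114 to 218), against 45.5 and 37.2 CPM. Both genes were at a lower CPM in KO, at a log2 KO/WT of −0.76 (−1.20 to −0.32) for Ncam1 and −0.82 (−1.45 to −0.20) for Robo2. The sum of the 25 genes had −0.17 (−0.37 to 0.04), against −0.15 in other cells, and the 23 others had 205 UMIs in WT and 294 in KO, a log2 KO/WT of 0.17 (−0.09 to 0.44). Cntn2, which encodes an adhesion protein of early axons, was low at 52.1 CPM in WT and 53.2 CPM in KO, which is 48.7-fold and 66.3-fold the level of other cells. Dcc, the receptor for netrin, had 0 UMIs in WT and 1 in KO, and Robo3, a receptor of commissural axons, had 0 in both.

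Genes of transmission were sparse. The 16 measured genes of transmitters, vesicles and receptors had 104 UMIs in WT and 82 in KO in sum, and 2 of them had 0 UMIs in both libraries. Chrna3 and Chrnb4, subunits of the nicotinic receptor of autonomic ganglia, had 12 and 28 UMIs and 17 and 11 UMIs in WT and KO. The sum was lower in KO by more than counting error, at a log2 KO/WT of −0.69 (−1.13 to −0.26), against −0.28 in other cells. Without Syt4 the other 15 genes had 81 UMIs in WT and 77 in KO, a log2 KO/WT of −0.42 (−0.89 to 0.05), so that this gene decides whether the interval includes 0. The widest gap was that of Syt4, which encodes a synaptotagmin, with 119.8 CPM in WT (23 UMIs, interval 75.9 to 179.7) and 20.5 CPM in KO (5 UMIs, interval 6.65 to 47.8). Chat, the enzyme that makes acetylcholine, had 2 UMIs in WT and 3 in KO, and the GABA synthesis genes Gad1 and Gad2 had 0 in WT and 1 each in KO, so no transmitter type could be read for single cells. Slc18a3 had a UMI in 8 of the 60 Phox2a cells and in 8 of the 60 cells with Eya2 or Pou4f1.

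Over all genes, few differed by 2-fold between the early neurons of the 2 libraries. Of 1871 genes with at least 50 UMIs in the early neurons of both libraries together, 18 (0.962%) were at least 2-fold higher in KO and 19 (1.02%) at least 2-fold lower, which is 37 genes (1.98%). The median log2 KO/WT was 0.03, with 5% of the genes below −0.61 and 5% above 0.63. Of the neuronal lists, 0 of 7 rule genes, 0 of 11 proneural, 0 of 6 Notch, 0 of 4 motor, 0 of 4 axon guidance and 0 of 5 Hox genes that passed the minimum were past 2-fold. Among 14 pan-neuronal genes 1 was lower, Dpysl3, which encodes a protein of the growth cone, with 349 CPM in WT (67 UMIs, interval 270.4 to 443) and 159.7 CPM in KO (39 UMIs, interval 114 to 218) against 92.1 and 92.1 CPM in other cells. The pan-neuronal list had a median log2 KO/WT of −0.01 and its sum had −0.10 (−0.21 to 0.02). The proneural sum had −0.07 (−0.15 to 0.02) and the motor sum 0.09 (−0.09 to 0.27), and the intervals of these 3 sums include 0. Of the lists of neuronal, pathway and position genes, 3 further sums were lower in KO by more than counting error, the Notch list and the transmitter list, which rests on Syt4, given above and the Hox list at −0.34 (−0.60 to −0.08), against −0.36 for the Hox list in other cells. The G2/M list stood slightly higher in KO, at 0.17 (0.08 to 0.26), as it did in other cells, at 0.11.

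**Figure D5:**
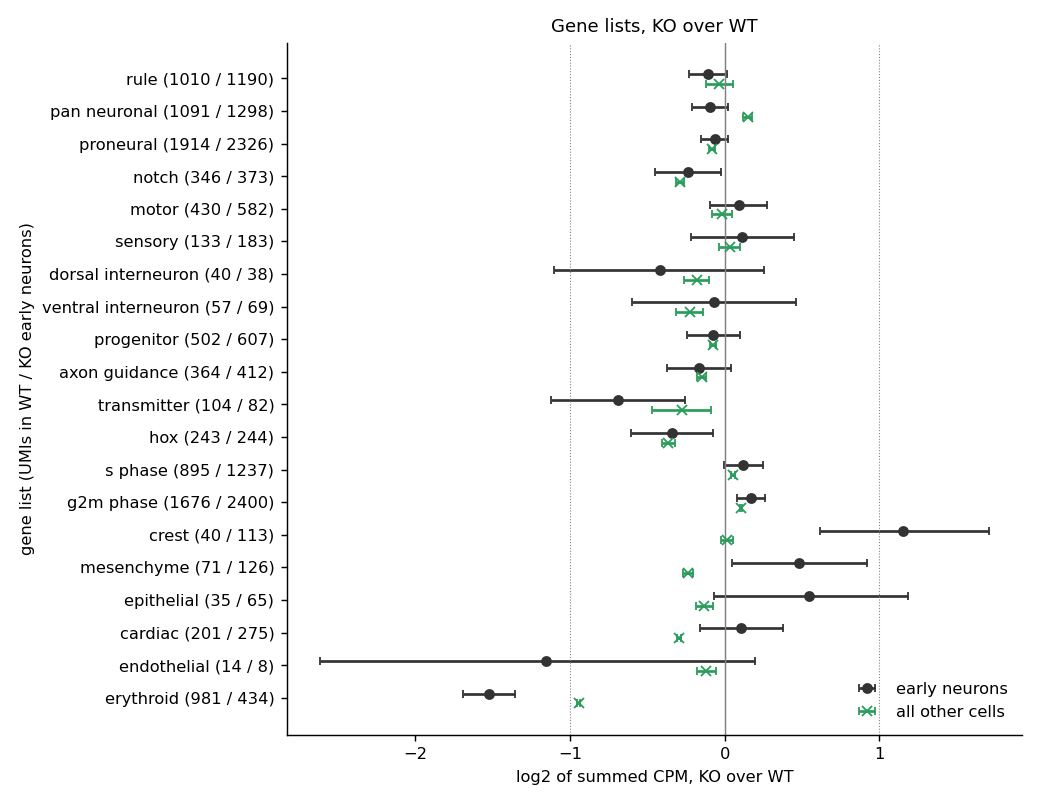
Log2 of the summed CPM of each gene list in KO over WT, for early neurons (black circles) and all other cells (green crosses), with exact intervals of 95% for counting error; the numbers in brackets are the UMIs in WT and KO early neurons, and dotted lines mark 2-fold. The pan-neuronal, proneural, motor and sensory lists lie between −0.10 and 0.11 in early neurons, the crest list lies at 1.15 and the erythroid list at −1.52.

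Apart from Xist and Tsix, which had higher ratios and are described with the X inactivation centre, the 10 genes with the highest ratio were Rfc1, AY036118, Col1a2, Fam133b, Stag1, Mrps14, Rgs4, Dnajb6, Eif4ebp2 and Mis18a. Rgs4 was the only one of them that also marked early neurons against other cells. It had a UMI in 13 WT and 26 KO cells, a log2 KO/WT of 1.13 (0.49 to 1.81) in early neurons and of −0.01 in other cells. Eif4ebp2, a repressor of cap-dependent translation, had 219 CPM in WT (42 UMIs, interval 158 to 296) and 467 CPM in KO (114 UMIs, interval 385 to 561), a log2 KO/WT of 1.09 (0.57 to 1.64) against 0.21 in other cells. Rfc1, the large subunit of the clamp loader of DNA replication, had 62.5 CPM in WT (12 UMIs, interval 32.3 to 109) and 213 CPM in KO (52 UMIs, interval 159 to 279), with a log2 KO/WT of 0.58 in other cells. AY036118 had 135 CPM in WT and 348 CPM in KO and a log2 KO/WT of 1.21 in other cells, so that its difference was found across the library. Col1a2, a collagen gene of mesenchyme, had 13 UMIs in WT and 45 in KO, and its log2 KO/WT of 1.44 became 0.42 when cells with 2 markers were let in.

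The 10 genes with the lowest ratio were Hba-a1, Hba-x, Hbb-y, Gapvd1, Hbb-bh1, Foxp1, Mrpl13, Apba2, Chd3 and Dpysl3, of which 4 are globins. The globins are transcripts of red blood cells, and all 4 with at least 50 UMIs were over 2-fold lower in KO. Their list had 981 UMIs in WT and 434 in KO in early neurons, a log2 KO/WT of −1.52, and −0.94 in other cells. The summed globin level in single early neurons ranged from 663 to 63904 CPM in WT and from 0 to 6439.7 CPM in KO. The part of free RNA from red blood cells in these values was not tested. Of the genes expressed in neurons, Apba2, an adaptor protein of synapses, had 271 CPM in WT (52 UMIs, interval 202 to 355) and 123 CPM in KO (30 UMIs, interval 82.9 to 175), a log2 KO/WT of −1.14 (−1.84 to −0.46) against −0.05 in other cells. Chd3, a chromatin remodeler, had 167 CPM in WT (32 UMIs, interval 114 to 235) and 73.7 CPM in KO (18 UMIs, interval 43.7 to 116), a log2 KO/WT of −1.18 (−2.10 to −0.30) against 0.19 in other cells. Foxp1, a forkhead factor, had 208 CPM in WT and 90.1 CPM in KO and a log2 KO/WT of 0.00 in other cells. Gapvd1 and Mrpl13 had 34 and 17 UMIs and 33 and 18 UMIs, about as few as Chd3, and their log2 KO/WT of −1.35 and −1.22 became −0.40 and −0.29 when cells with 2 markers were let in. These genes were ranked by their ratio within early neurons, so a smaller ratio in other cells is no finding, and with 1 library per genotype no difference could be set against replicate error.

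Crest genes were unequal between the early neurons of the 2 libraries. The 11 crest genes had 40 UMIs in WT and 113 in KO, or 208 and 463 CPM, against 506 and 511 CPM in other cells. The log2 KO/WT of the sum was 1.15 (0.62 to 1.71), and 0.02 in other cells. Tfap2b, a crest transcription factor, had 2 UMIs in WT and 22 in KO, Ets1 had 2 UMIs in WT and 14 in KO and Sox10, the factor that marks migrating crest and glial precursors, had 4 UMIs in WT and 13 in KO. A few cells carried much of this. A UMI of at least 2 of Sox10, Foxd3 and Erbb3 was found in 1 WT and 4 KO early neurons, and without these 5 cells the sum had 38 UMIs in WT and 71 in KO, a log2 KO/WT of 0.62 (0.03 to 1.23). Without the cells in the top 5% of UMIs of their library or with markers of erythroid, cardiac or endothelial cells it was 0.42. Whether each of the 5 cells was a single cell was not tested. The labels call the sampled cells cardiac neural crest cells. Of the early neurons, 4 of 106 in WT and 8 of 105 in KO had a UMI of Sox10, and 31 and 52 had a UMI of any of the 11 crest genes.

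Genes of the X inactivation centre also differed between the libraries. Xist had 22 UMIs in WT and 106 in KO in early neurons, a log2 KO/WT of 1.92 against 1.06 in other cells. Tsix, its antisense partner, had 8 UMIs in WT and 52 in KO, and whether the counting kept the strands of this overlapping pair apart is not given in the sources used here. The Y-linked gene Ddx3y had 12 UMIs in WT and 9 in KO in early neurons and 53.1 and 26.3 CPM in other cells of WT and KO. The share of female embryos in each pool is not known here, and its part in the genes above was not tested.

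Prdm6, the targeted gene, had 0 UMIs in the early neurons of both libraries. Counts of 0 allow up to 15.6 CPM in WT and 12.3 CPM in KO at the floor of 3 UMIs, which are above the 5.05 and 3.16 CPM of all other cells, so its loss could not be checked in these cells and its absence there is not shown. Of 12 measured Prdm genes Prdm12, a factor of sensory and some interneuron precursors, had the most UMIs in early neurons, with 52.1 CPM in WT (10 UMIs, interval 24.97 to 95.8) and 49.1 CPM in KO (12 UMIs, interval 25.4 to 85.8), against 3.55 and 2.03 CPM in other cells. Prdm8 had 4 UMIs in WT and 1 in KO and Prdm13, a factor of dorsal interneuron precursors, had 2 UMIs in WT and 2 in KO.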

How the data were processed

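Tissue pools, 1 per genotype, were profiled by 10x Genomics droplet RNA-Seq. Cell Ranger 1.3.1, Scanpy and the mm10 genome are named in the submitters' processing notes. The study's methods name a human genome with the reporter, while the deposited symbols are of mouse. The deposited values are a score: per the methods, the authors divided each cell's UMI counts by its library size, rescaled them and took the square root, after filters on cells and genes and removal of mitochondrial and ribosomal UMIs. Doublets were removed by the authors with a caller, whether before deposit is not said, and no caller was run here.

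Squared values were divided by the smallest nonzero square of the cell, which gave whole UMIs for 100% of values within 0.01. This gave 20781384 UMIs in 11958 WT cells and 18936857 UMIs in 9765 KO cells, over 18131 genes. UMIs were summed over early neurons per library (192053 in WT and 244237 in KO) and given per 1000000 UMIs (CPM) with exact Poisson intervals. Ratios of KO over WT carry exact conditional intervals and shares exact Clopper-Pearson intervals, all at 95% and for counting error only. With 1 library per genotype no count model was run, no p-value was computed, and a gene counted as different at 2-fold or more among genes with at least 50 UMIs. For bounds a count of 0 was set to a floor of 3 UMIs, and counts of 1 or 2 were used as counted.

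Named genes were the rule markers, list genes with at least 20 UMIs or a defining role, 15 leading genes, the 10 highest and 10 lowest ratios (ordered with 3 UMIs added to each side) and Prdm6. Xist, Tsix and Y-linked genes were named apart, and some genes that the rule names are not reported here. The members and lists were chosen with earlier results of these data known. Groups by identity gene, and the filter of 100 CPM against progenitors, were set after the values were seen. The calculations were tested on simulated data. Promoters were RefSeq sequences on GRCm38.p6, the assembly that mm10 names. Python 3.11.15, numpy 2.4.6, scipy 1.17.1, pandas 2.3.3 and matplotlib 3.10.9 were used.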

Additional observations from a re-analysis of the deposited data

How the results depend on the processing

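The alternatives covered other scalings (a median of ratios and a trimmed mean of log ratios, which moved all ratios by 0.03), a mean over cells, at least 2 or at least 4 markers, depth, and leaving out mixed or deepest cells. Of the 150 values that answer a comparison under an alternative, 136 moved by less than the counting error or stayed within 1.5 times. With cells thinned to 1000 UMIs the log2 ratio of shares was −0.14. With at least 2 markers the number of genes higher in KO was 32, and the list sums were 0.41 for crest, −1.08 for erythroid, −0.17 for cardiac and −0.017 for mesenchyme genes. With at least 4 markers 10 genes were higher, the epithelial sum was 1.18, and the endothelial sum, from 14 and 8 UMIs, turned to 0.015. With a minimum of 20 UMIs 160 genes were higher and 147 lower, and with 1 UMI in each library 934 and 1201, where fewer UMIs per gene widen the counting error. The crest sum was 0.42 without mixed or deepest cells and 0.62 without members that had at least 2 of Sox10, Foxd3 and Erbb3, an alternative chosen after seeing the data. The cause of these shifts was not tested. Of 1362 ratios of single named genes 15 moved, and of 227 named genes 148 kept their sign throughout. No paired analysis was possible because each genotype had 1 library. No library could be left out for the same reason. Depth limits all genes with few UMIs: at 3 UMIs or fewer in both libraries no ratio is given.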

Other observations

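Transcripts of other tissues of the region were present in early neurons at low levels. The 9 cardiac genes had 1047 CPM in WT and 1126 CPM in KO in early neurons, against 3992 and 3253 CPM in other cells, and the 7 endothelial genes had 72.9 CPM in WT and 32.8 CPM in KO, against 217 and 200.3 CPM. The 9 mesenchyme genes had 369.7 CPM in WT and 516 CPM in KO and the 6 epithelial genes 182 CPM in WT and 266 CPM in KO, against 821 and 697 CPM and 284 and 259 CPM in other cells of WT and KO. Both lists were nearer to the level of other cells in KO than in WT, and in early neurons their log2 KO/WT was 0.48 (0.05 to 0.92) and 0.55 (−0.07 to 1.18). The mesenchyme value was −0.017 when cells with 2 markers were let in, and without Col1a2, which had 13 of the 71 UMIs in WT and 45 of the 126 in KO, it was 0.14 (−0.37 to 0.65). The 9 immediate early and heat shock genes that mark stress of dissociation had 219 CPM in WT and 254 CPM in KO, against 246 and 223 CPM in other cells, with a log2 KO/WT of 0.22 (−0.37 to 0.82) in early neurons.

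Cdkn1c, an inhibitor of cyclin-dependent kinases that is switched on as neural precursors stop dividing, had 849 CPM in WT (163 UMIs, interval 723 to 989) and 769.7 CPM in KO (188 UMIs, interval 664 to 888), against 447 and 410.3 CPM in progenitors. Its relative Cdkn1b had only 4 UMIs in WT and 13 in KO, or 20.8 and 53.2 CPM, against 39.6 and 38.2 CPM in progenitors, levels that lie within the exact Poisson intervals of both libraries (5.67 to 53.3 CPM in WT and 28.3 to 91.0 CPM in KO). Gadd45g, a stress and differentiation gene of newborn neurons, had 109 CPM in WT and 53.2 CPM in KO against 12.3 and 11.1 CPM. Srrm4, a splicing factor of neurons, had 98.9 CPM in WT and 123 CPM in KO against 6.99 and 6.03 CPM.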
